A study of Mus musculus with 11 samples.

Results

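The Hedgehog ligand gene Ihh, its receptor and decoy genes, its signal transducer and the Gli transcription factors were followed through sorted mouse bone marrow stromal cells. The 9 genes were Ihh, Scube2, Ptch1, Hhip, Gas1, Smo, Gli1, Gli2 and Gli3, taken by gene symbol from 3 deposited tables of raw counts. All 9 were listed in each table, among 16507 genes in the age table, 14910 in the knockout table and 14267 in the Sca1 table, or 16576 genes over all of them. PolyA RNA was sequenced from 11 samples for comparisons by age, by surface Sca1 and by deletion of the receptor gene Igf1r. The 3 adult samples were wild-type PDGFRa+CD51+ cells. The 3 Igf1r knockout samples were PDGFRa+Sca1+ cells with Cre-positive titles and no stated age. The 2 samples labelled Sca1-negative, replicates 2 and 3, were wild-type postnatal PDGFRa+Sca1- cells. The 3 samples labelled Sca1-positive were wild-type postnatal (perinatal in the design) PDGFRa+Sca1+ cells with Cre-negative titles, and they were the controls of the knockout and the perinatal group of the age comparison. Cre and the deletion therefore cannot be told apart, and the adult sort differed from the perinatal sort in its second surface marker. The sources used here name neither the Cre driver nor the animals behind each sample, so p-values measure the spread between samples, which may be technical.

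Hedgehog ligands are secreted lipid-modified proteins, and binding of a ligand to Patched (Ptch1) frees Smoothened (Smo) to act at the primary cilium, where it changes the processing of the Gli factors. Gli2 is mainly an activator and Gli3 mainly a repressor, while Gli1 is an activator and also a target gene, so that Gli1, Ptch1 and Hhip transcripts are widely read as a record of signalling. In growing bone Ihh comes from prehypertrophic chondrocytes and acts on chondrocytes and on osteoblast precursors of the perichondrium, and in adult marrow Gli1 marks a population of stromal progenitors.

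Library totals ran from 13412316 to 23782217 counts, and 3 counts, taken as the floor of a library, were 0.126 to 0.224 CPM, the counts scaled to a common library total. Labelled Sca1-positive libraries 2 and 3 stood in all 3 tables, with equal counts for all 9 members, so the comparisons share them. The labels give a single sample as Sca1-positive replicate 1 in both the age and the knockout table, but 1.72% of the genes and 0 of the 9 members had equal counts there. Perinatal 1 of the age table and control 1 of the knockout table are therefore treated as separate libraries. Whether both came from that sample is not settled by the sources used here. Ly6a, which encodes Sca1, went against the labels: it stood at 666 and 659 CPM in labelled Sca1-negative libraries and at 13.8 and 10 CPM in labelled Sca1-positive libraries 2 and 3. It stood at 768, 682 and 930 CPM in the knockouts and 425 CPM in control 1, and the age table does not list it. Igf1r had 182, 80 and 77 counts in the knockouts against 599, 548 and 444 counts in the controls, below every control although the edgeR adjusted p was 0.0816. Pdgfra, the sort marker shared by all groups, stood at 13.4 to 15.2 CPM in adult libraries and 235 to 279 CPM in the perinatal libraries of the age table.

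Scube2 and Ptch1 are the members called between the Sca1 labels, and they are also the members with the lowest adjusted p-values in the knockout comparison. Their promoters are shown for that reason, from 250 bases before to 50 bases after the gene start, from RefSeq on GRCm38.p6. Both are read on the minus strand, Scube2 at chr7:109865630-109865929 and Ptch1 at chr13:63565686-63565985, and the capitals mark the 50 bases after the start.
Scube2: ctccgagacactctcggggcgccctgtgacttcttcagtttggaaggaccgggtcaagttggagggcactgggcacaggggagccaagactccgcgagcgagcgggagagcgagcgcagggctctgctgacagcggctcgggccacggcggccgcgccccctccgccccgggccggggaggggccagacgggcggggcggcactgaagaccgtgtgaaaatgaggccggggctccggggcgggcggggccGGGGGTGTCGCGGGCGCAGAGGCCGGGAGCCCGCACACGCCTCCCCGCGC
Ptch1: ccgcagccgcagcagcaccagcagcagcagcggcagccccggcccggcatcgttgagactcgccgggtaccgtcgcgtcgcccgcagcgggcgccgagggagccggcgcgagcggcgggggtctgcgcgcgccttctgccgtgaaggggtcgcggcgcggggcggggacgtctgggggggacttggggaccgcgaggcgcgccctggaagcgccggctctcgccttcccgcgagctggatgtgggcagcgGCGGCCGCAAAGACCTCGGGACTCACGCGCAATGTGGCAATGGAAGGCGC
The Scube2 stretch held 36 CG pairs and 75.3% G and C, and the Ptch1 stretch 47 CG pairs and 76.3%, beside medians of 7 pairs and 52.7% over 32851 mouse promoters of the same length. The remaining member promoters also lay above these medians, at 17 to 39 CG pairs and 62.3% to 73.7%, so CG richness is not particular to these genes. The Gli binding motif GACCACCCA was searched on both strands. It occurred in 0.253% of all these promoters and in 0 of the 8 member promoters found, which are those of all members but Gli1. Its shorter core CCACCCA, contained in the longer motif, occurred in 9.3% of promoters and again in 0 of the 8. The absence of these letters is a description of these windows. The RefSeq start of Ptch1 lies inside the longer GENCODE gene at chr13:63508328-63573598, while the Scube2 gene spans chr7:109798676-109865679.

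Levels of different genes were compared per length, as CPM per kilobase of merged exons (RPKM). Gas1 stood first and Smo next in every group but the adult one, and Ihh stood last there. In the knockouts Gas1 averaged 52.0 ± 5.49 RPKM, Smo 16.9 ± 3.85, Gli3 6.49 ± 1.07 and Hhip 6.28 ± 0.878 RPKM (SD, n = 3). Gli3 and Hhip did not differ there beyond their spread, and neither did Gli2 at 3.30 ± 1.39 and Gli1 at 2.77 ± 1.72 RPKM. Scube2, Ptch1 and Ihh followed at 0.750 ± 0.599, 0.187 ± 0.0944 and 0.0257 ± 0.0100 RPKM.

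In the controls of the same table the order differed mainly in the place of Scube2, which came after Smo at 12.8 ± 10 RPKM, with an SD close to its mean. The controls held Gas1 at 42.7 ± 13.3, Smo at 22.6 ± 3.38 and Hhip at 7.14 ± 0.327 RPKM (SD, n = 3). Gli2, Gli1 and Gli3 lay together at 4.97 ± 1.03, 4.90 ± 0.226 and 4.65 ± 0.251 RPKM, within each other's spread. In the libraries labelled Sca1-negative Gas1, Smo, Gli3 and Hhip averaged 56.8 ± 6.32, 18.7 ± 3.18, 6.49 ± 0.558 and 6.44 ± 1.18 RPKM (SD, n = 2), an order that put Scube2 in the place it had in the knockouts.

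Adult libraries had another order. Smo led at 7.01 ± 1.28 RPKM, ahead of Gas1 at 2.15 ± 0.285 RPKM (SD, n = 3). Gli3 at 0.710 ± 0.166 and Ptch1 at 0.584 ± 0.0704 RPKM did not differ beyond their spread, Gli2, Ihh, Gli1 and Scube2 lay between 0.00946 and 0.113 RPKM, and Hhip was at 0. The order differed in places by the authors' deposited TPM, and the cause was not tested. With their TPM, adult Ptch1 came before Gli3, perinatal Hhip before Scube2, and Hhip before Smo in labelled Sca1-negative libraries. Gli2 came before Gli3 by the mean of the perinatal libraries of the age table, although perinatal 1 had 5.47 TPM of Gli2 and 8.72 TPM of Gli3. In the Sca1-positive libraries of the Sca1 table Gli2 averaged 19.8 TPM, against 9.57 TPM for Gli1 and 7.7 TPM for Gli3. That the Gli genes lie together by RPKM thus depends on the measure.

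**Figure D1:**
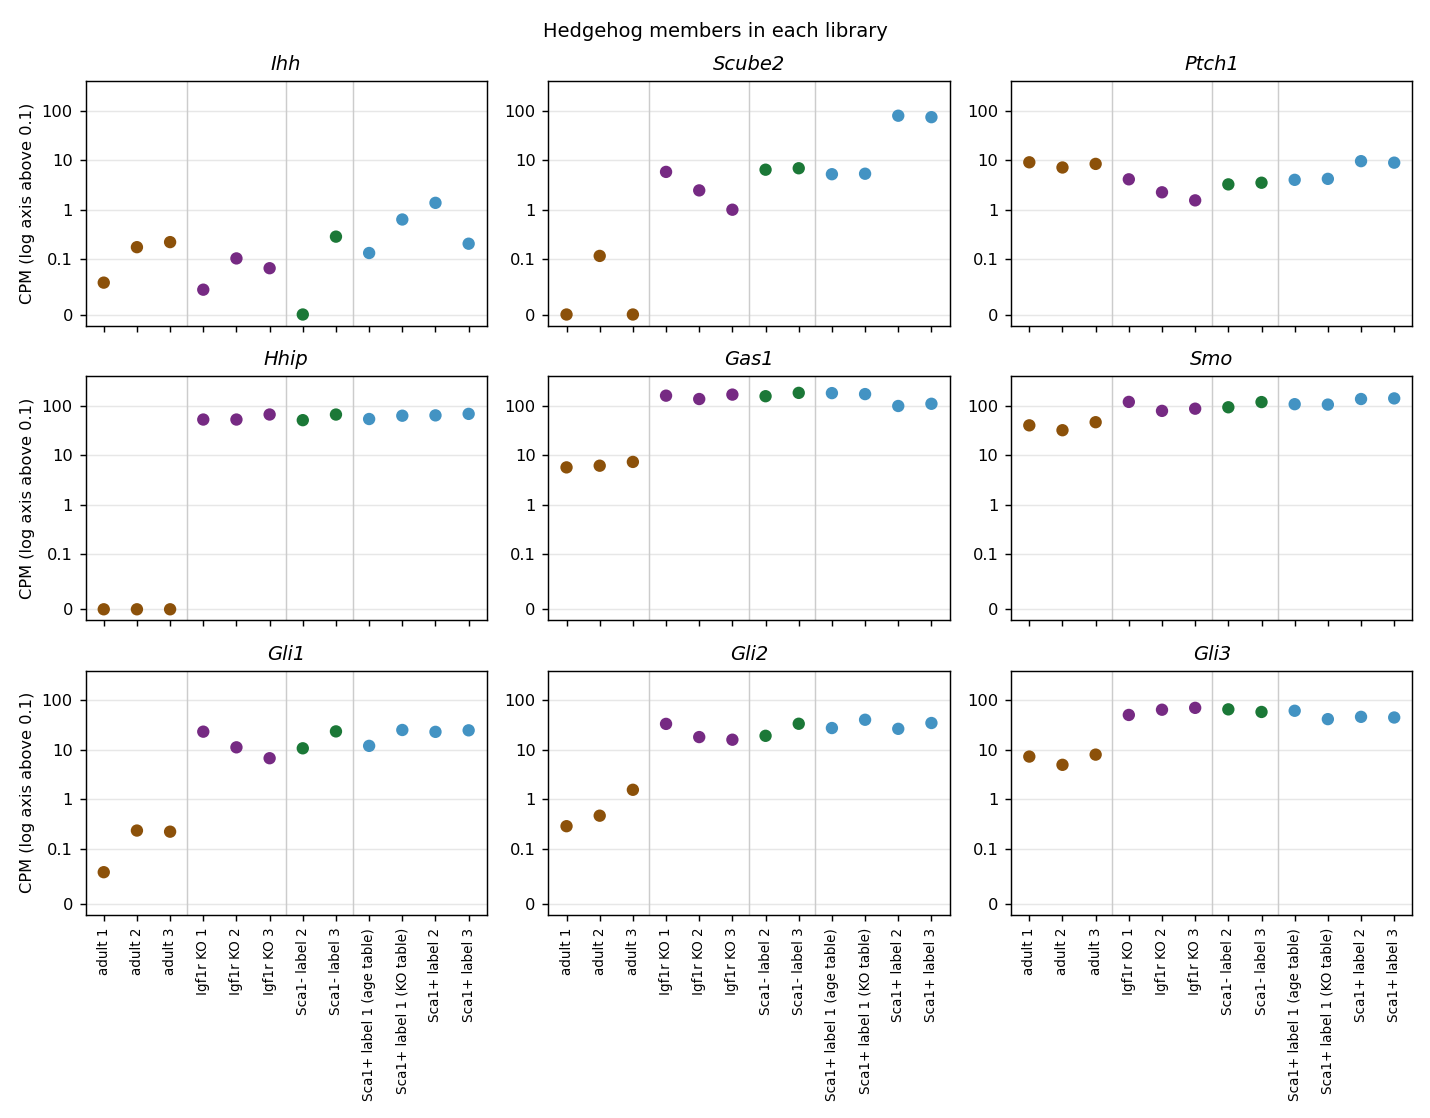
CPM of each of the 9 members in every library (points; vertical axis logarithmic above 0.1 CPM and linear below it), with adult, Igf1r knockout, labelled Sca1-negative and labelled Sca1-positive libraries from left to right. Scube2 stands at 74.6 CPM or higher in labelled Sca1-positive libraries 2 and 3 and at 6.94 CPM or lower in every other library, and Hhip is at 0 in the 3 adult libraries.

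Ihh RNA had 24 counts or fewer in every library, and most libraries were at or near the floor of 3 counts, so differences in the ligand were hardly detectable at this depth. The gene lies at chr1:74945315-74951672 (mm10, GENCODE M21, minus strand). Counts were 1, 3 and 3 in adult libraries against 2, 24 and 3 in the perinatal libraries of the age table. They were 1, 2 and 2 in the knockouts against 13, 24 and 3 in the controls, and 0 and 4 in labelled Sca1-negative libraries against 24 and 3 in labelled Sca1-positive libraries. Control 1 and Sca1-positive 2 lay clear of the floor, and the groups overlapped in the age and Sca1 tables but not in the knockout table. Ihh did not pass the filter on low counts in any comparison, and without that filter edgeR gave adjusted p-values of 0.0932 for age, 0.181 for the knockout and 0.4 for the Sca1 labels.

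In adult libraries Scube2, Hhip, Gas1, Smo, Gli1, Gli2 and Gli3 were lower than in perinatal libraries, Ptch1 was not called and Ihh was not tested. Of the 8 members tested, 7 were called lower and 0 higher at an edgeR adjusted p under 0.05, where 77.1% of the 13757 genes tested were called, 39.7% lower and 37.4% higher. The groups did not overlap for 7 of the 8 members tested, beside 81% of all genes. With so many genes called, the count by itself does not set the members apart. The median log2 fold change of the members tested was -5.11, the same with Hhip set at its bound, beside -0.06 over all genes. Hhip, Scube2, Gli1 and Gli2 passed the filter on low counts through their perinatal counts, so they were tested only because they were high there. Scaling between libraries holds the all-gene median near 0. Marker lists described below also had medians away from it, at -10.92 for cartilage, -7.86 for fibroblast progenitors, -2.52 for stroma and 10.19 for macrophages. The median of the members therefore does not set them apart either. In these bulk samples fewer cells of a type and less RNA per cell cannot be told apart.

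Scube2 encodes a secreted protein that helps release lipid-modified Hedgehog ligand from the cells that make it. It had 0, 0.118 and 0 CPM in adult libraries against 5.26, 79.7 and 74.6 CPM in perinatal libraries. Adult libraries lay below all perinatal ones, and perinatal 1 lay far below perinatal 2 and 3. The pooled counts were 2 in adult and 2537 in perinatal libraries, a perinatal over adult ratio of 1300 with an exact 95% counting interval of 359 to 10700, and the edgeR adjusted p was 0.000502. Without perinatal 2 and 3 the ratio was 125 (33.6 to 1050) and the gene was still called lower, at an adjusted p of 0.000367. Without adult 2, the remaining adult libraries were at 0, and Scube2 was at least 268-fold lower in them against a floor of 3 counts per library. These intervals and floors cover counting error only.

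Among the proteins that bind ligand at the cell surface, the decoy receptor and the co-receptor fell and the main receptor was not called. Hhip, the decoy receptor and a target gene (chr8:79965851-80058006, minus strand), had 0 counts in all 3 adult libraries against 53.7, 63.5 and 68.1 CPM in perinatal libraries. Adult Hhip was at least 323-fold lower against the floor of 3 counts per library (edgeR adjusted p = 3.14e-06), and at least 281-fold lower against perinatal 1 alone. Gas1, a membrane-anchored co-receptor that helps Ptch1 bind ligand (chr13:60174405-60177365, minus strand), had 5.67, 6.13 and 7.31 CPM in adult libraries against 179, 98.3 and 109 CPM in perinatal libraries. The groups were well apart, with perinatal 1 the highest, and the log2 fold change was -4.61 ± 0.282 (SE, edgeR adjusted p = 5.84e-06).

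Among the 8 members tested, Ptch1 stood out as the one whose adult level lay in the perinatal range. Adult libraries had 9.15, 7.19 and 8.50 CPM against 4.05, 9.64 and 8.99 CPM in perinatal libraries. The groups overlapped because perinatal 1 lay below the adult libraries while perinatal 2 and 3 lay among or above them. The unscaled means were 8.28 ± 0.998 CPM in adult libraries and 7.56 ± 3.06 CPM in perinatal ones (SD, n = 3), and after TMM scaling the log2 fold change was -0.14 ± 0.331 (SE, edgeR adjusted p = 0.713), so the sign depends on the scaling. Against perinatal 1 alone Ptch1 was higher in adult libraries, at 0.78 with an adjusted p of 0.0454, in a fit that assumes this lone library varies like the adult ones. That brought the members called to 8 of 8, beside 74.4% of all genes called in that fit.

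Smo, the seven-pass membrane protein that relays the signal (chr6:29735503-29761365, plus strand), had the smallest difference of the 7 called members. It had 40.0, 31.9 and 46.3 CPM in adult libraries against 107, 136 and 140 CPM in perinatal libraries. Every adult library lay below every perinatal one, with a log2 fold change of -1.96 ± 0.194 (SE, edgeR adjusted p = 5.69e-05). Smo was thus 3.89-fold lower by the fit, and it was the member with the most RNA per length left in adult cells.

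The 3 Gli genes were all lower in adult libraries, Gli1 most and Gli3 least. Gli1 (chr10:127329882-127341974, minus strand) had 0.0579, 0.236 and 0.224 CPM in adult libraries, or 1, 4 and 3 counts, against 12.1, 23.2 and 24.9 CPM in perinatal libraries. Adult Gli1 was thus near the floor, and its log2 fold change was -7.10 ± 0.492 (SE, edgeR adjusted p = 1.02e-05), or -6.35 against perinatal 1 alone. Gli2, the main activator (chr1:118834132-119053619, minus strand), had 0.289, 0.471 and 1.57 CPM in adult libraries against 27.7, 26.7 and 35.0 CPM in perinatal libraries. Adult 3 was the highest of the adult libraries, and the log2 fold change of -5.60 ± 0.493 (SE, edgeR adjusted p = 3.22e-05) was -6.50 without it. Gli3, the main repressor (chr13:15463235-15730026, plus strand), had 7.35, 5.01 and 8.05 CPM in adult libraries against 61.8, 46.5 and 45.2 CPM in perinatal libraries. Gli3 thus stayed well above the floor in adult cells, with a log2 fold change of -3.18 ± 0.236 (SE, edgeR adjusted p = 1.40e-05).

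The adult libraries also differed from the perinatal ones in the cell types their markers name. The 10 macrophage markers summed to 23600 to 26800 CPM in adult libraries against 25.2 to 29.9 CPM in perinatal libraries, and all 10 were called higher in adult. The 8 stroma markers summed to 4400 to 6820 CPM in adult libraries against 47400 to 80600 CPM in perinatal libraries, with 5 called lower and 1 higher. The cartilage markers, with 9 of 9 tested called lower, summed to 53.8 to 89.9 CPM in adult libraries, where Col9a1, Col9a2 and Hapln1 were at 0, against 824, 6670 and 7780 CPM in perinatal libraries. The part of these differences in the lower Hedgehog genes was not tested.

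The other genes of the pathway are given by role, and their counts are read against the 77.1% of all genes called. Several, among them Scube1, Gpc3, Pthlh and Mycn, passed the filter on low counts through their perinatal counts, and Lrp2 through its adult counts. Each of these was tested only because it was high there, which limits what the counts and medians of the lists show. Of 6 ligand and release genes 4 were tested and 3 fell, with a median log2 fold change of -2.61. They were Hhat, which puts the fatty acid on the ligand, at 6.89 ± 0.561 CPM in adult libraries and 53.0 ± 7.19 CPM in perinatal ones (log2 fold change -3.21), and the Scube2 relatives Scube1 and Scube3, of which Scube3 had a log2 fold change of -2.01. Disp1, a transporter that exports ligand, had 27.3 ± 5.25 CPM in adult libraries and 21 ± 5.90 CPM in perinatal ones and was not called (edgeR adjusted p = 0.692). The ligand gene Shh was not listed, and the ligand gene Dhh did not pass the filter on low counts. Dhh had 0.117 ± 0.156 CPM in adult libraries and 0.831 ± 1.1 CPM in perinatal ones, as low as Ihh. Of 5 receptor and co-receptor genes 4 fell and 1 rose, with a median of -4.92. Boc, a co-receptor, had 9.06 ± 1.22 CPM in adult libraries and 227 ± 14.1 CPM in perinatal ones. Gpc3, a glypican that binds ligand, had 0.0389 ± 0.0337 CPM in adult libraries and 888 ± 85.9 CPM in perinatal ones. Lrp2, at 1.09 ± 0.515 CPM in adult libraries and 0 counts in perinatal ones, was the gene that rose.

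The transducers of the cilium and cytoplasm went both ways, with 8 of 21 called higher, 7 lower and a median of -0.11. Grk2, a kinase that acts on Smo, had 270 ± 11.6 CPM in adult libraries and 34.8 ± 3.61 CPM in perinatal ones, and Kif3a, a motor of ciliary transport, had 179 ± 28.2 CPM in adult libraries and 20.1 ± 3.13 CPM in perinatal ones. Evc, a ciliary partner of Smo, fell to 9.71 ± 0.689 CPM in adult against 40.1 ± 5.40 CPM in perinatal libraries. Of 8 target genes 7 were tested, 4 fell and 1 rose, with a median of -1.09. The cell cycle gene Ccnd1 rose, at 326 ± 6.65 CPM in adult libraries and 40.8 ± 4.53 CPM in perinatal ones, whereas Pthlh, which encodes the partner of Ihh in the growth plate, and Mycn had 0 counts in all adult libraries against 22.4 ± 2.24 and 3.42 ± 1.69 CPM in perinatal ones. Of 8 growth plate genes 5 fell and 0 rose, among them Pth1r, the receptor for the Pthlh product, at 12.8 ± 4.24 CPM in adult libraries and 66.9 ± 20.8 CPM in perinatal ones. The median of that list was -2.55, beside -0.06 over all genes. This list depended on the perinatal libraries, since against perinatal 1 alone 4 of its genes were called higher and 2 lower. Leaving out adult 1, adult 2 or perinatal 2 left 3 called lower, beside 70.7% to 73.3% of all genes called in either direction. Of the growth plate genes 1 was called higher without perinatal 1 and without perinatal 2. The same count was called higher with DESeq2, with no filter on low counts and with the replicate number as a block. Without adult 2 the ligand and release genes had 2 called lower.

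**Figure D2:**
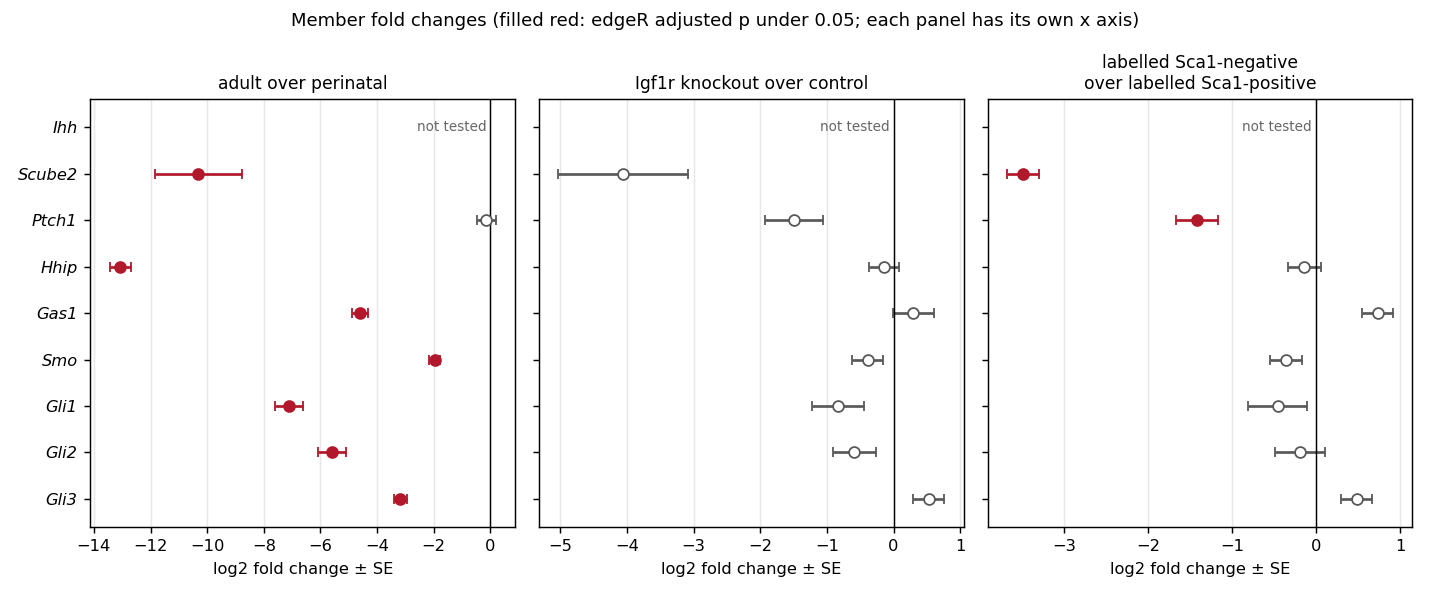
Log2 fold changes of the members with their SE (horizontal axis, its own range in each panel) in the age, knockout and Sca1 comparisons from left to right, filled red where the edgeR adjusted p was under 0.05. Adult values run from -13.07 for Hhip, a fitted value of a gene at 0, to -0.14 for Ptch1, 0 members are filled in the knockout panel, and Scube2 and Ptch1 are filled in the Sca1 panel.

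After loss of Igf1r no member was called, and the largest differences among the 8 members tested were those of Scube2 and Ptch1. Of 8 members tested 0 were called at an edgeR adjusted p under 0.05, where 0.0368% of the 13590 genes tested were called. Of the same 8, 2 had an unadjusted p under 0.05, beside 21.8% of all genes, and DESeq2 called 2, Scube2 and Ptch1, beside 7.12% of all genes. The 5 genes that edgeR called were Hba-a1, Hba-a2, Hbb-bs, Hbb-bt and Msmp, all lower and named after their values were seen. The 5 erythroid markers summed to 13 to 22.9 CPM in the knockouts against 95.9 to 140 CPM in the controls. The median log2 fold change of the members was -0.49, beside -0.03 over all genes. The groups did not overlap for 2 of the 8 members tested, Ptch1 and Gli3, beside 27.9% of all genes.

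Scube2 had 5.86, 2.48 and 1.01 CPM in the knockouts against 5.38, 79.8 and 74.6 CPM in the controls. The groups overlapped, since control 1 lay among the knockouts and below knockout 1. The log2 fold change was -4.06 ± 0.971 (SE, edgeR adjusted p = 0.176). The authors' deposited table gives -4.07 with an adjusted p of 0.0107, beside 6.4% of its genes under 0.05, and DESeq2 run here gave an adjusted p of 0.00970. Against control 1 alone the edgeR value was -0.89 with an adjusted p of 0.646, and without control 1 it was -4.59 with an adjusted p of 0.0208, beside 2.19% of all genes called.

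Ptch1 had 4.15, 2.27 and 1.56 CPM in the knockouts against 4.24, 9.65 and 9.0 CPM in the controls. Every knockout lay below every control, although knockout 1 and control 1 were almost level. The log2 fold change was -1.49 ± 0.439 (SE, edgeR adjusted p = 0.177), and against control 1 alone it was -0.76 with an adjusted p of 0.625. The authors' deposited table gives -1.50 with an adjusted p of 0.0356.

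Hhip had 52.4, 52.4 and 66.2 CPM in the knockouts against 62.6, 63.6 and 68.2 CPM in the controls, with a log2 fold change of -0.14 ± 0.227 (SE, edgeR adjusted p = 0.695). Knockout 3 lay among the controls, so the groups overlapped. Gas1 had 159, 136 and 167 CPM in the knockouts against 171, 98.4 and 109 CPM in the controls. Here control 1 was the highest of all and controls 2 and 3 the lowest, so that the log2 fold change of 0.30 ± 0.301 (SE, edgeR adjusted p = 0.534) became -0.22 against control 1 alone. Smo had 119, 78.4 and 86.8 CPM in the knockouts against 105, 136 and 140 CPM in the controls, and the log2 fold change was -0.39 ± 0.236 (SE, edgeR adjusted p = 0.322). Knockout 1 lay above control 1, so these groups overlapped too.

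Among the Gli genes, knockout 1 stood apart from knockouts 2 and 3. Gli1 had 23.4, 11.3 and 6.81 CPM in the knockouts against 25.3, 23.2 and 24.9 CPM in the controls, with a log2 fold change of -0.83 ± 0.394 (SE, edgeR adjusted p = 0.252). Gli2 had 33.6, 18.2 and 16.1 CPM in the knockouts against 40.7, 26.7 and 35.0 CPM in the controls, with a log2 fold change of -0.59 ± 0.322 (SE, edgeR adjusted p = 0.289). For both genes knockout 1 lay in the range of the controls and the other knockouts lay below it. Gli3 went the other way, with 50.9, 64.9 and 70.8 CPM in the knockouts against 41.9, 46.6 and 45.2 CPM in the controls, above every control. Its log2 fold change was 0.53 ± 0.235 (SE, edgeR adjusted p = 0.236), and against control 1 alone it was 0.52.

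The number of calls moved most with knockout 1 among the libraries left out. Without it 4 of the 9 members then tested were called, beside 21.5% of the genes tested in that fit, whereas without control 1 only Scube2 was called. Scube2 (-4.84, edgeR adjusted p = 0.0478), Ptch1 (-1.90, 0.0292) and Gli1 (-1.37, 0.0247) were lower and Gli3 (0.69, 0.0431) was higher. Knockout 1 also kept the most Igf1r of the knockouts, 8.20 CPM against 4.22 and 3.24 CPM in knockouts 2 and 3, and the part of this in the Gli values was not tested. Against control 1 alone 0 members and 0 genes were called, with Gli1 at -0.97 and Gli2 at -0.93.

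**Figure D3:**
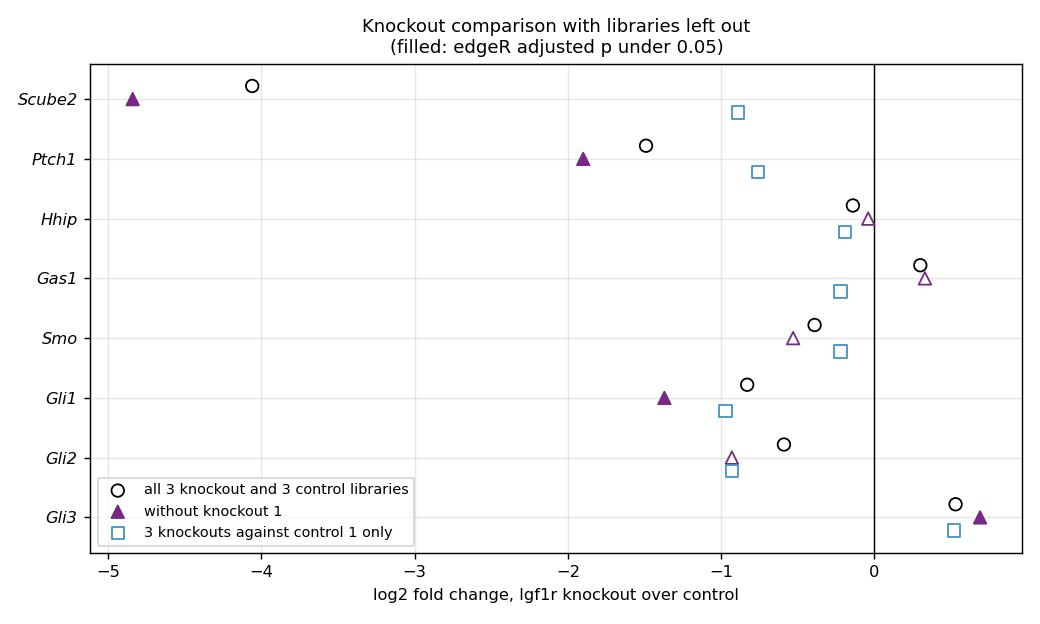
Log2 fold change of 8 members, Igf1r knockout over control (horizontal axis), with all libraries (circles), without knockout 1 (triangles) and against control 1 alone (squares), filled where the edgeR adjusted p was under 0.05. Scube2 moves between -4.84 and -0.89 with the libraries used, while Gli3 stays between 0.52 and 0.69.

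The balance of Gli1 to Gli3, both per length, describes the same libraries. It was 0.883, 0.335 and 0.185 in the knockouts against 1.16, 0.957 and 1.06 in the controls, so every knockout lay below every control. It was 0.315 and 0.778 in labelled Sca1-negative libraries, and 0.375 in perinatal 1 of the age table. Wild-type libraries thus reached down to the level of knockout 2, and adult libraries lay lower still, at 0.0151, 0.0903 and 0.0533. This ratio was formed after its parts had been seen and has no test.

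None of the other pathway genes was called in the knockout, where 0.0368% of all genes tested were called. The counts called were 0 of 4 ligand and release genes, 0 of 4 receptors and co-receptors, 0 of 21 transducers, 0 of 8 targets and 0 of 8 growth plate genes. Their median log2 fold changes were -1.16, -0.04, 0.14, -0.96 and -2.08 in that order. At an unadjusted p under 0.05 the counts were 2, 1, 2, 1 and 7. DESeq2 called 2, 0, 1, 1 and 4, beside 7.12% of all genes. Without knockout 1 edgeR called 3, 1, 2, 0 and 2, beside 21.5% of all genes. Without control 1 it called 5 growth plate genes, beside 2.19% of all genes. Of the growth plate genes 7 of 8 had an unadjusted p under 0.05, beside 21.8% of all genes. Sox9, the transcription factor of cartilage, had 61.4 ± 16.3 CPM in knockout and 264 ± 142 CPM in control libraries (edgeR adjusted p = 0.176). Controls 2 and 3, as the Sca1-positive libraries of the Sca1 comparison, averaged 341 ± 63.2 CPM of Sox9, so the control mean rests mainly on them. Their part in the differences of this list was not tested.

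In the comparison of the Sca1 labels, Scube2 and Ptch1 were lower and the other members were not called. Of 8 members tested 2 were called lower and 0 higher at an edgeR adjusted p under 0.05, where 4.41% of the 13529 genes tested were called, 2.79% lower and 1.63% higher. The median log2 fold change of the members was -0.28, beside 0.01 over all genes. The groups did not overlap for 5 of the 8 members tested, beside 49.8% of all genes. Since Ly6a RNA went against both labels, the direction is given by the label and not by Sca1.

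Scube2 had 6.49 and 6.94 CPM in labelled Sca1-negative libraries against 79.7 and 74.6 CPM in labelled Sca1-positive libraries. The pairs were far apart, with little spread inside each, and Scube2 fell by 3.49 ± 0.191 on the log2 scale (SE, edgeR adjusted p = 0.00169). Ptch1 had 3.28 and 3.54 CPM in labelled Sca1-negative libraries against 9.64 and 8.99 CPM in labelled Sca1-positive libraries. Ptch1 fell by 1.42 ± 0.247 (SE, edgeR adjusted p = 0.0304), and this call was lost without Sca1-positive 2 (-1.39, adjusted p = 0.151) or without Sca1-positive 3 (-1.45, adjusted p = 0.106), in fits where a lone library is assumed to vary like the other group.

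Gas1 had 155 and 181 CPM in labelled Sca1-negative libraries against 98.3 and 109 CPM in labelled Sca1-positive libraries. The groups did not overlap, but the log2 fold change of 0.73 ± 0.186 missed the threshold (SE, edgeR adjusted p = 0.0913). DESeq2 called Gas1 higher at the same 0.73 with an adjusted p of 0.0275, and it called 7.58% of all genes. Hhip had 50.9 and 66.1 CPM in labelled Sca1-negative libraries against 63.6 and 68.1 CPM in labelled Sca1-positive libraries, with overlapping groups (log2 fold change -0.14 ± 0.194 SE, edgeR adjusted p = 0.751). Smo had 92.7 and 118 CPM in labelled Sca1-negative libraries against 136 and 140 CPM in labelled Sca1-positive libraries, without overlap but also without a call (-0.36 ± 0.191 SE, edgeR adjusted p = 0.384).

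The Gli genes were not called between the Sca1 labels. Gli1 had 10.8 and 23.7 CPM in labelled Sca1-negative libraries against 23.2 and 24.9 CPM in labelled Sca1-positive libraries, and Gli2 had 19.3 and 33.8 CPM in labelled Sca1-negative libraries against 26.7 and 35.0 CPM in labelled Sca1-positive libraries. By CPM Sca1-negative 2 was low for both genes while Sca1-negative 3 lay with the Sca1-positive libraries. By the authors' deposited TPM the groups did not overlap for Gli2. It had 5.09 and 10.2 TPM in labelled Sca1-negative libraries against 16.7 and 22.9 TPM in labelled Sca1-positive libraries. The cause of this difference between the measures was not tested. The log2 fold changes of Gli1 and Gli2 were -0.46 ± 0.35 and -0.19 ± 0.297 (SE, edgeR adjusted p = 0.548 and 0.782). Gli3 had 66.0 and 58.5 CPM in labelled Sca1-negative libraries against 46.5 and 45.2 CPM in labelled Sca1-positive libraries, apart but not called at 0.48 ± 0.179 (SE, edgeR adjusted p = 0.220). Without Sca1-negative 3, 8 of the 9 members then tested were called, all but Ihh, with Gli1 at -1.09 and Gas1 at 0.64, beside 34.7% of all genes.

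Outside the growth plate list, other pathway genes gave 1 call lower and 1 higher. Scube1 fell to 3.19 ± 0.121 CPM in labelled Sca1-negative libraries, against 34.2 ± 1.07 CPM in labelled Sca1-positive libraries (log2 fold change -3.38, edgeR adjusted p = 0.00169). Cdon, a co-receptor like Gas1, rose to 108 ± 8.59 CPM in labelled Sca1-negative libraries, against 53.1 ± 2.64 CPM in labelled Sca1-positive libraries (1.05, edgeR adjusted p = 0.0279). Of the ligand and release genes 1 of 4 was called, and of the receptors and co-receptors 1 of 4. Of the transducers 0 of 21 and of the target genes 0 of 8 were called, beside 4.41% of all genes. The medians were -0.64, 0.08, 0.01 and -0.66 in that order. At an unadjusted p under 0.05, where 18.9% of all genes lay, 3 ligand and release genes, 1 receptor or co-receptor, 1 transducer and 2 targets were counted. DESeq2 called 1 ligand and release gene higher and 1 lower, 1 receptor or co-receptor, 0 transducers and 1 target. It called 7.58% of all genes. The call of Cdon was lost without Sca1-positive 2 or Sca1-positive 3. All 8 of the growth plate genes fell, with a median of -3.13, beside 2.79% of all genes called lower. They included Sp7, a factor of the osteoblast lineage, at 0.834 ± 0.252 CPM in labelled Sca1-negative libraries and 23.8 ± 0.391 CPM in labelled Sca1-positive libraries, and Runx2, another such factor, at 4.19 ± 0.101 CPM in labelled Sca1-negative libraries and 31.6 ± 5.13 CPM in labelled Sca1-positive libraries.

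**Figure D4:**
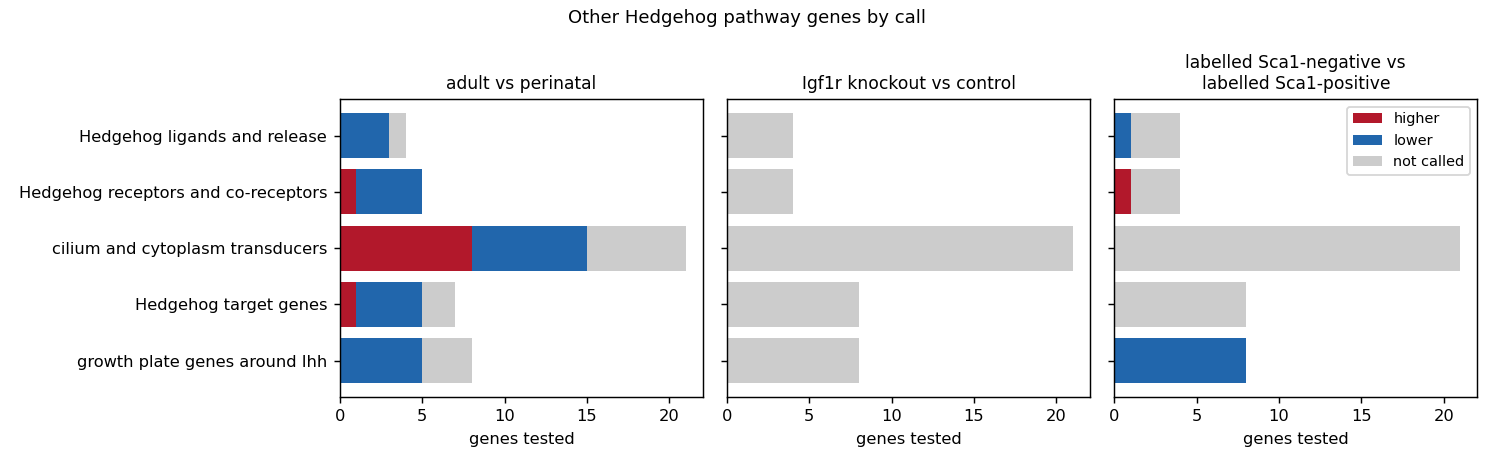
Number of genes tested in each list of other Hedgehog pathway genes (horizontal axis), coloured by call (higher red, lower blue, not called grey), for the age, knockout and Sca1 comparisons from left to right. In the age panel 8 of 21 transducers are higher and 7 lower, 0 genes are called in the knockout panel, and all 8 growth plate genes are lower in the Sca1 panel.

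Scube2 and Ptch1, like the cartilage and osteoblast markers, were higher in labelled Sca1-positive libraries 2 and 3 than in every other perinatal or knockout library. Smo was also highest in these 2 libraries and Gas1 lowest. The 10 cartilage markers summed to 452 to 812 CPM in the knockouts, 676 and 781 CPM in labelled Sca1-negative libraries, 824 CPM in perinatal 1, 951 CPM in control 1, and 6670 to 7790 CPM in labelled Sca1-positive libraries 2 and 3. The 7 osteoblast markers summed to 127 to 277 CPM in the knockouts, 144 and 95.0 CPM in labelled Sca1-negative libraries, 327 CPM in perinatal 1, 82.7 CPM in control 1, and 6110 and 5690 CPM in labelled Sca1-positive 2 and 3. The 7 fibroblast progenitor markers, which include Ly6a, went the other way, with 6240 to 7240 CPM in the knockouts, 7010 and 6540 CPM in labelled Sca1-negative libraries and 5050 CPM in control 1, against 1340 and 1620 CPM in controls 2 and 3. The age table lists 5 of these 7 markers, without Ly6a, and there they summed to 5330 CPM in perinatal 1 and to 1310 and 1600 CPM in perinatal 2 and 3. In the Sca1 comparison 10 of 10 cartilage and 6 of 7 osteoblast markers were called lower and 5 of 7 fibroblast progenitor markers higher. The part of cartilage and bone cells in the Scube2 and Ptch1 values was not tested. Beside them, Scube2 in control 1 and perinatal 1, both low in these markers and labelled Sca1-positive, stood at 5.38 and 5.26 CPM, and Ptch1 at 4.24 and 4.05 CPM.

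**Figure D5:**
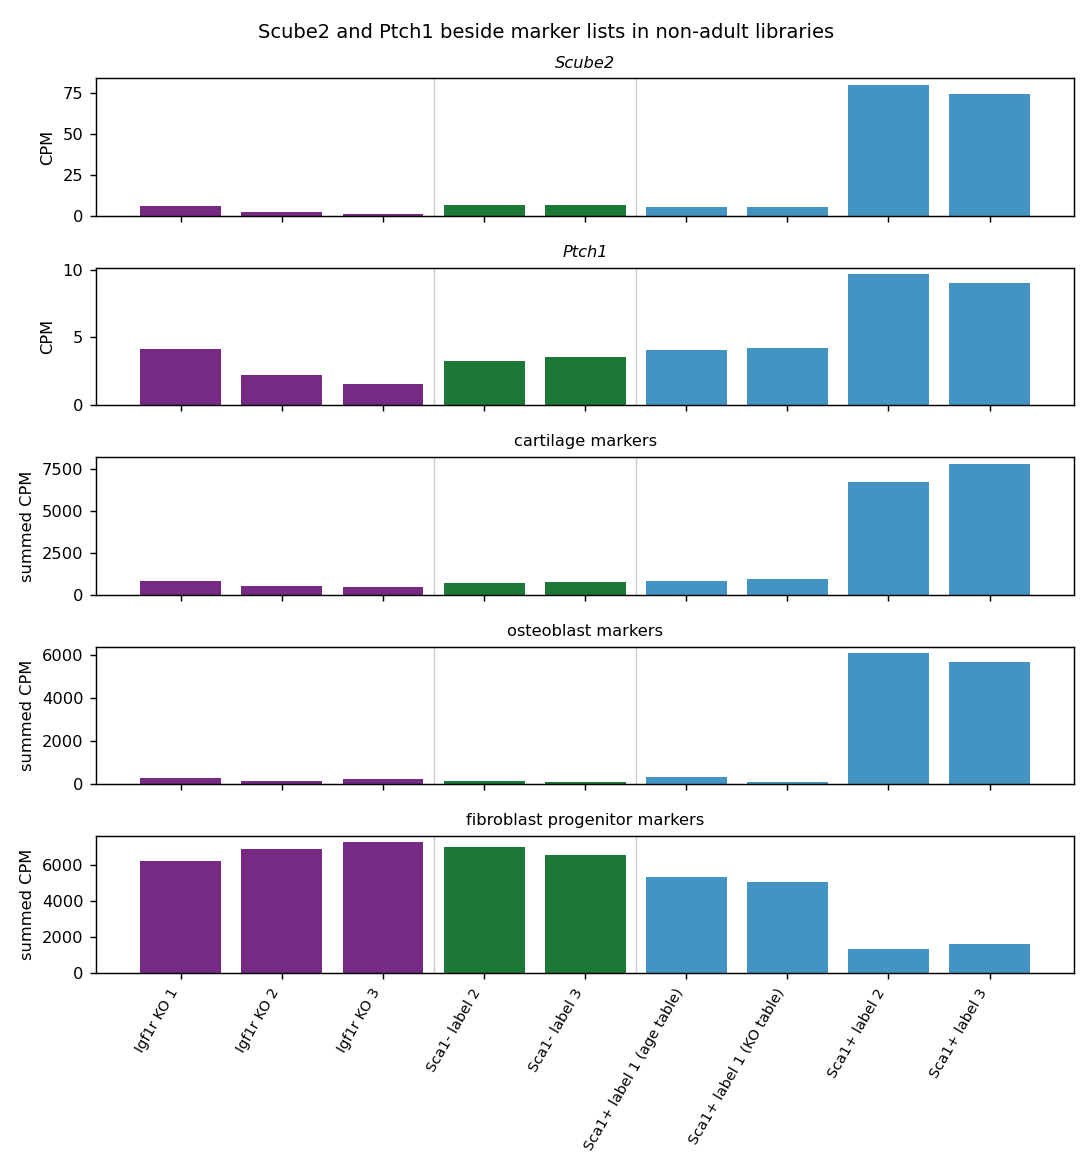
CPM of Scube2 and Ptch1 and summed CPM of 3 marker lists (bars, vertical axes from 0) in the Igf1r knockout, labelled Sca1-negative and labelled Sca1-positive libraries from left to right. Labelled Sca1-positive libraries 2 and 3 are the highest for Scube2, Ptch1, cartilage and osteoblast markers and the lowest for fibroblast progenitor markers, of which 5 rather than 7 are summed in library 1 of the age table.

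Genes with the pattern closest to 3 of the members were sought over the 6 libraries of the knockout table, by the root mean square difference of centred log2(CPM + 1) values. They describe these 6 libraries, which share controls 2 and 3 with the other comparisons, and carry no test. Closest to Ptch1 were Wwp2 (0.0525), Pde7b (0.0934), Mcam and Shd (0.102 each). Wwp2 had 62.1, 38.3 and 32.1 CPM in the knockouts against 59.3, 132 and 122 CPM in the controls, so knockout 1 and control 1 were again nearly level. Closest to Gli1 were Ptbp1 (0.0462), Mblac1 (0.0608), Yju2 (0.0655) and Cops7b (0.0657). Ptbp1 had 318, 155 and 102 CPM in the knockouts against 319, 294 and 334 CPM in the controls, with knockout 1 at the level of the controls as for Gli1. Closest to Ihh were Pdf (0.134), Bfsp1 and Cdcp1 (0.150 each) and Klhdc1 (0.159), a ranking that rests on Ihh counts near the floor.

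Exons of 4 members overlap annotated genes on the opposite strand: Arhgap9 and Gm47200 at Gli1, Gm6556 at Gli3, Gm27820 at Hhip and Gm48488 at Gas1. Overlap was taken with the whole span of each partner, introns included. The strand setting of the counting is not given in the sources used here. Any reads of these partners at the shared bases therefore cannot be told apart from those of the members. In adult libraries Hhip had 0 counts and Gli1 had 1, 4 and 3 counts, so few or no such reads were counted for them there.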

How the data were processed

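PolyA RNA of 11 sorted samples was sequenced by the authors, who deposited 3 tables of raw counts per gene and library, per the file headers. The submitters' processing notes name Trimmomatic 0.32, mm10 and DESeq2; which aligner, counter, annotation and strandedness were used is not given in the sources used here. Of the deposited values, the authors' TPM columns of the age and Sca1 tables served here only for the order of levels and for Gli2 between the Sca1 labels. Each table holds the authors' log2 fold changes and adjusted p-values, per the file headers; those of the age and Sca1 tables run perinatal over adult and Sca1-positive over Sca1-negative, and none was used in a test. A further 6 columns of values per sample in the knockout table, headed as TPM but on a log-like scale, were not used.

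Each table was fitted by itself on the counts as deposited, over all genes passing filterByExpr, with TMM factors and the group as the only term (edgeR 4.0.16, R 4.3.3, robust glmQLFit and glmQLFTest). TMM factors were 1.08 to 1.13 in adult and 0.898 to 0.921 in perinatal libraries of the age table. A gene was called at a Benjamini-Hochberg adjusted p under 0.05 over all genes tested, and the SE is the size of the log2 fold change over the square root of F. CPM and RPKM values are unscaled, with exon lengths from GENCODE M21, in which 16506 of 16507, 14910 of 14910 and 14267 of 14267 identifiers were found. The fits were tested on simulated data. Alternatives were edgeR's RLE and upper quartile factors, no filter, DESeq2 1.42.0, leaving out genes at 0 in a whole group, a replicate block, no robust estimation, leaving out each library, and leaving out both Sca1-positive libraries 2 and 3.

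The members and lists were chosen with earlier results of these data known. Named were all 9 members, the genes of the labels, up to 3 called genes per pathway list by adjusted p, examples from these lists with their values, and the 4 genes most like Ihh, Ptch1 and Gli1. The values of 1 list gene that this rule names are not reported here. Same-numbered samples were not taken as pairs, because the labels give the numbers no shared animal, batch or day.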

Additional observations from a re-analysis of the deposited data

How the results depend on the processing

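In the age comparison leaving out each library gave 7 members and 10003 to 11548 genes called; 6 members were called where genes at 0 in a whole group were left out, which removes Hhip. Ptch1, not called, ranged from -0.42 to 0.07 with 1 library left out: it turned to 0.01 without adult 2, 0.07 without perinatal 2, 0.02 without perinatal 3 and 0.78 without perinatal 2 and 3.

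In the knockout comparison the 5 genes called became 967 with DESeq2 (2 members), 0 with a replicate block, 0 without controls 2 and 3, and 0 to 3003 (0 to 4 members) with 1 library left out; Gas1 turned to -0.22 against control 1 alone.

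In the Sca1 comparison the 597 genes called became 1026 with DESeq2, 1369 with a replicate block, and 484 to 4835 (1 to 8 members) with 1 library left out. With 1 library left out Gli2 ranged from -0.61 to 0.14 and Hhip from -0.31 to 0.01, both highest without Sca1-negative 2, and Gli2 turned to 0.04 without Sca1-positive 3. Gas1 was called with the replicate block (adjusted p = 0.0252), without Sca1-negative 2 (0.000404) and without Sca1-negative 3 (0.00313). The cause of these changes was not tested.

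Same-numbered libraries deviated together with correlations of -0.02, -0.02 and 0.19 for age, 0.19, 0.12 and 0.06 for the knockout, and 0.30 and 0.30 for the 2 Sca1 pairs, so the pairing by number is not established. The library that correlated best bore the same number for 2 of 6 libraries in the age table and 4 of 6 in the knockout table. These counts come from the data and not from the design. In the Sca1 table it did so for 4 of 4 libraries, which holds no further information. With 2 libraries in a group the deviations from the group mean mirror each other. Both Sca1 correlations are therefore the same value, and 4 of 4 follows from its positive sign. The block changed no other member call. With groups of 2 or 3 libraries and Ihh at 0 to 24 counts, depth limits what can be said of Ihh.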
